A study of Mus musculus with 10 samples.

Results

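Expression of the EGF receptor ligands and receptors was compared between pancreata of WT and KSR23 mice taken on postnatal day 5. The set comprised 10 genes chosen by symbol. It held 6 ligand genes (Egf, Tgfa, Areg, Hbegf, Btc and Ereg) and 4 receptor genes (Egfr, Erbb2, Erbb3 and Erbb4). All 10 were listed among the 24062 genes of the count tables, and 8 were among the 13882 genes that reached 5 counts in each of the 10 libraries. Areg and Ereg were below this limit.

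EGF family ligands are made as membrane-anchored precursors, and metalloproteases of the ADAM family cut the soluble factor from the cell surface. The ligand brings ErbB receptors together in pairs, and their kinase domains then switch on the Ras-MAPK and PI3K-AKT pathways. In the pancreas, signaling from Egfr is known to drive the change of acinar cells toward a duct-like state.

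Whole pancreas of C57BL/6 mice was used, with 5 WT and 5 KSR23 libraries of bulk RNA. KSR23 mice carry an IL-23 cassette (p19 and p40) behind a floxed STOP in the ROSA26 locus, from the R23 strain, together with the K14-cre transgene, whose promoter is active in keratinocytes. WT mice had the labelled genotype wild type. The libraries held 16715976 to 57784136 counts on genes, and KSR23 replicate 3 was the shallowest. Acinar markers summed to 231677 to 251675 CPM (counts per 1000000 counts of the scaled library) in WT mice and to 136620 to 172356 CPM in KSR23 mice. Of the keratinocyte markers, Krt5 was listed at 0 in every mouse. Krt14 (30 to 128 counts per mouse) and Krt10 (112 to 271) were detected in every mouse and were not called. Neutrophil markers summed to 9.91 to 35.1 CPM in WT and 38.9 to 317.7 CPM in KSR23 mice, with KSR23 replicate 3 the highest. Of 7 neutrophil markers, 5 were called higher, where 16.2% of all genes tested were called higher. WT replicates 1 and 2 stood apart from the other WT mice in Reg3b, an epithelial defense gene, with 691.6 and 729.2 CPM against 4.73 to 14.6 CPM.

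The ligand genes Areg, Ereg and Btc lie together with Epgn, another EGF family ligand gene, within 375531 bases of chromosome 5. Areg spans chr5:91139599-91148432, Ereg chr5:91074622-91093646 and Btc chr5:91357261-91402994 in GRCm38, the assembly that mm10 names. Egf spans chr3:129677565-129755316, Tgfa chr6:86195223-86275719, Egfr chr11:16752203-16918158, Erbb2 chr11:98412470-98437716, Erbb3 chr10:128567523-128589652 and Erbb4 chr1:68032186-69108059, and all are annotated as protein coding. The 250 bases ahead of the transcript start are shown for Egf and Erbb2, which moved in opposite directions between the groups, and for Areg, which was almost silent. Capitals mark a GC box (GGGCGG) and a TATA box (TATAAA), which do not overlap. The sequences are from RefSeq on GRCm38.p6, read 5′ to 3′ on the strand of the gene, at chr3:129755323-129755572 (minus strand) for Egf, chr11:98412234-98412483 (plus strand) for Erbb2 and chr5:91139349-91139598 (plus strand) for Areg.
Egf: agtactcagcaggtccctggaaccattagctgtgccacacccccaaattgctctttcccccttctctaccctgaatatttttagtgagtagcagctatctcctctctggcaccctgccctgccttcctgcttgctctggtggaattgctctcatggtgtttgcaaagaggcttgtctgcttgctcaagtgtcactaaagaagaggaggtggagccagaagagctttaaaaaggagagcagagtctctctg
Erbb2: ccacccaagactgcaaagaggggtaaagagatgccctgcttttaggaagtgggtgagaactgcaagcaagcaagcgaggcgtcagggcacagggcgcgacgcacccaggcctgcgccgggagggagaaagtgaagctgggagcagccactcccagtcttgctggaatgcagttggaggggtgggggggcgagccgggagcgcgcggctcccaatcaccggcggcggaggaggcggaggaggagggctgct
Areg: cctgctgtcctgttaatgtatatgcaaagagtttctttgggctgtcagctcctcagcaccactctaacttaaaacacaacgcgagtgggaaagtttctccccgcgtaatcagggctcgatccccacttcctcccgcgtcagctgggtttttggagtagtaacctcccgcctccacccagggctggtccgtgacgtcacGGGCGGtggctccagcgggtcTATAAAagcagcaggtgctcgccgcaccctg

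The Erbb2 stretch was 66.0% G and C and the Egf stretch 50.4%. Motifs were searched on both strands in 7 members taken from the promoter table, namely Areg, Btc, Egf, Egfr, Erbb2, Erbb4 and Tgfa. Member windows on chromosome 18, where Hbegf lies, were left out of this search, and Erbb3 and Ereg had no window in the table. Hbegf and Erbb3, both higher in KSR23 mice, were therefore not searched. Areg, Egfr and Tgfa held a GC box, which 32.74% of the 32851 windows of this length in the table held. Areg alone of the 7 held a TATA box, against 12.37% of all windows. None of the 7 held the letters of a STAT site (TTCNNNGAA, 7.02% of all windows) or of an AP-1 site (TGANTCA, 6.75%).

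In KSR23 mice, Hbegf, Erbb2 and Erbb3 were higher and Egf and Btc were lower, while Tgfa, Egfr and Erbb4 did not pass the test. Thus 3 of 8 tested members were called higher, against 16.2% of all genes tested, and 2 of 8 lower, against 14.8%. Calls in either direction covered 31.0% of all genes tested. The groups did not overlap for Egf, Hbegf, Erbb2 and Erbb3, whereas 19.4% of all genes tested had no overlap. Over all genes, 2250 were called higher and 2049 lower, and the split became 3072 higher and 1164 lower with scaling by the library total alone. As a reference, the median log2 fold change (log2 FC, KSR23 over WT) of all genes tested was -0.01.

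**Figure D1:**
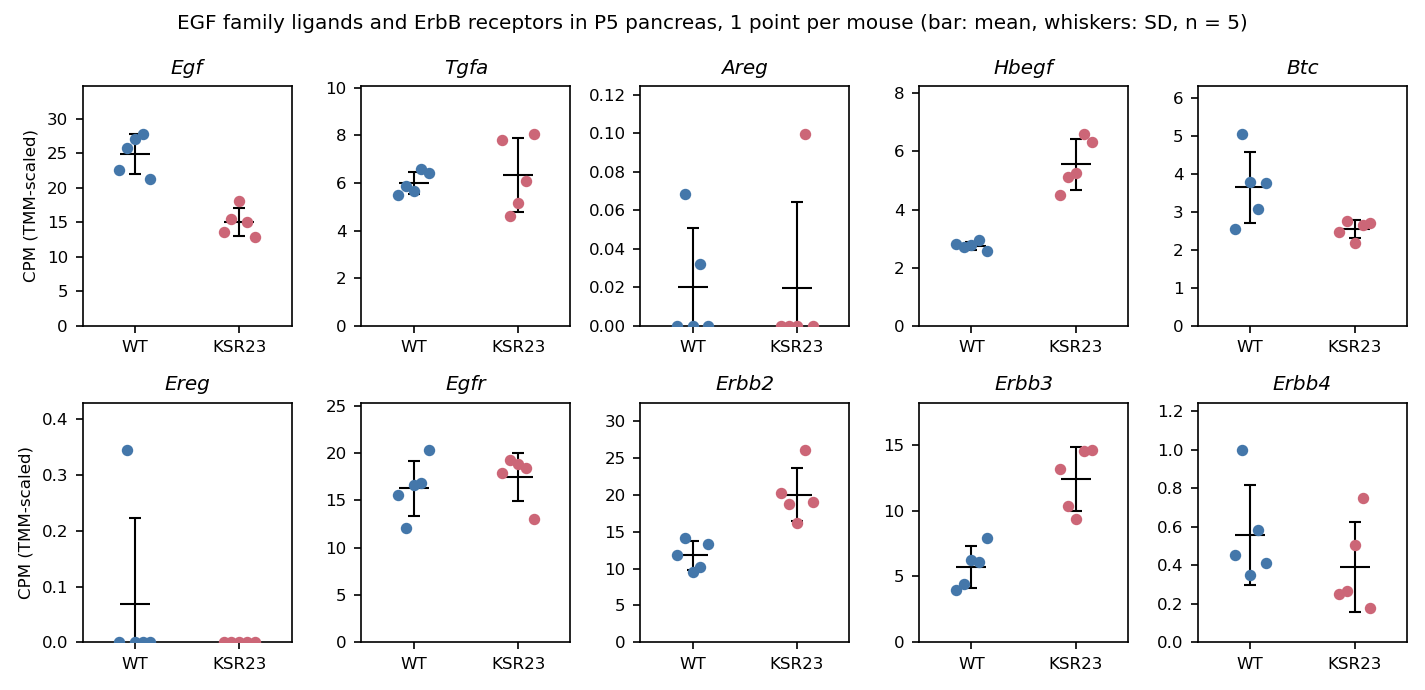
CPM of the 10 members in each mouse, with 1 panel per gene, WT and KSR23 mice on the horizontal axis, bars for the mean and whiskers for the SD (n = 5). Egf lies lower in all 5 KSR23 mice (12.8 to 18.1 CPM against 21.2 to 27.8 CPM), and Hbegf, Erbb2 and Erbb3 lie higher in all 5, while Areg and Ereg are near 0.

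Egf, the founding ligand of the family, binds Egfr and was lower in KSR23 mice. It measured 22.6, 25.8, 27.0, 27.8 and 21.2 CPM in WT mice 1 to 5, and 13.7, 15.4, 18.1, 15.1 and 12.8 CPM in KSR23 mice 1 to 5. The highest KSR23 mouse did not reach the lowest WT mouse. The mean fell from 24.9 ± 2.86 to 15.0 ± 2.01 CPM (SD, n = 5), a log2 FC of -0.74 (SE 0.103, adjusted p = 2.70e-05). In bulk RNA, fewer cells of a type and less RNA per cell cannot be told apart. Acinar markers (5 of 6 called lower) and islet markers (6 of 7 called lower) fell in the same mice. Over all genes tested, 14.8% were called lower. The part of acinar and islet cells in the Egf result was not tested. Egf overlaps the antisense genes Gm42697, Gm42650 and 6330410L21Rik. The strand setting of the counts is not given in the sources used here, so reads of the shared stretches cannot be assigned to Egf or to these genes.

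Hbegf, a heparin-binding ligand of Egfr and Erbb4, changed in the opposite direction. It measured 2.80, 2.71, 2.77, 2.94 and 2.57 CPM in WT mice and 4.50, 5.13, 5.26, 6.60 and 6.32 CPM in KSR23 mice. The WT mice lay close together, and all KSR23 mice were above them. Hbegf rose from 2.76 ± 0.133 to 5.56 ± 0.873 CPM (SD, n = 5), or 2.02-fold, with a log2 FC of 1.01 (SE 0.147, adjusted p = 4.24e-05). Macrophage markers, 5 of 8 called higher and 1 lower, summed to 382.1 to 466.7 CPM in WT mice and to 381.6 to 638.0 CPM in KSR23 mice. Of all genes tested, 16.2% were called higher and 14.8% lower. The part of macrophages and of neutrophils in the Hbegf result was not tested.

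Btc, or betacellulin, a ligand of Egfr and Erbb4, was lower with a small margin. The WT mice had 2.56, 5.05, 3.79, 3.07 and 3.76 CPM and the KSR23 mice 2.47, 2.76, 2.18, 2.66 and 2.71 CPM. The groups overlapped, since 3 KSR23 mice were above WT mouse 1. Mean Btc was 3.65 ± 0.938 CPM in WT and 2.56 ± 0.237 CPM in KSR23 mice (SD, n = 5), a log2 FC of -0.50 (SE 0.185, adjusted p = 0.0465). Btc no longer passed when WT replicate 2, 3 or 5 or any 1 KSR23 mouse was left out, and the adjusted p ranged from 0.0182 to 0.154 over 19 alternatives. It was highest without WT replicate 2, where the log2 FC was -0.36. The islet markers, which summed to 8091 to 11334 CPM in WT and 4935 to 6167 CPM in KSR23 mice, were lower in the same mice, and their part in the Btc result was not tested.

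Tgfa, an Egfr ligand long linked to acinar-to-ductal change, showed no detectable difference between groups. It measured 5.50, 5.87, 5.65, 6.58 and 6.41 CPM in WT mice and 7.80, 4.59, 5.15, 6.08 and 8.06 CPM in KSR23 mice. The KSR23 mice spread to both sides of the WT range, with 2 above and 2 below it. The log2 FC was 0.09 (SE 0.154, adjusted p = 0.700). This error would still allow a modest change in either direction.

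Areg, or amphiregulin, and Ereg, or epiregulin, were close to the limit of detection. Areg had 0, 2, 0, 1 and 0 counts in WT mice and 4 counts in KSR23 mouse 4 alone among the KSR23 mice. Ereg had 10 counts in WT mouse 2 and 0 in all other mice. A difference was not detectable at this depth in either gene (p = 1 for both in an exact, two-sided permutation test on CPM). A count of 0 allows up to 3 counts, or 0.0519 to 0.179 CPM of the library total depending on the mouse.

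The receptor genes moved apart from each other. Egfr, the receptor for Egf, Tgfa and Areg, measured 15.6, 12.1, 16.6, 16.8 and 20.3 CPM in WT mice and 17.9, 19.3, 18.9, 18.4 and 13.0 CPM in KSR23 mice. All KSR23 mice lay within the WT range. The means were 16.3 ± 2.92 and 17.5 ± 2.54 CPM (SD, n = 5), with a log2 FC of 0.10 (SE 0.128, adjusted p = 0.589). Egfr overlaps the antisense gene Egfros, and reads of the shared stretch cannot be assigned to either gene with the strand setting unknown.

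Erbb2 encodes the receptor that has no known ligand of its own and acts as the preferred partner of the other ErbB receptors. It measured 11.8, 14.1, 9.52, 10.2 and 13.3 CPM in WT mice and 20.2, 18.7, 16.2, 26.0 and 19.0 CPM in KSR23 mice. The lowest KSR23 mouse was above the highest WT mouse. Erbb2 rose 1.70-fold, from 11.8 ± 1.98 to 20.0 ± 3.63 CPM (SD, n = 5), with a log2 FC of 0.77 (SE 0.130, adjusted p = 0.000211). Erbb2 overlaps Mien1, and reads of the shared stretch cannot be assigned to either gene with the strand setting unknown. Its neighbor Grb7, whose product is an adaptor that binds ErbB receptors, starts 8677 bases beyond the end of Erbb2 and was also higher, with 17.4 ± 2.71 CPM in WT and 22.8 ± 3.37 CPM in KSR23 mice (SD, n = 5) and a log2 FC of 0.40 (SE 0.115, adjusted p = 0.0146). The Grb7 call was lost without WT replicates 1 and 2 together (adjusted p = 0.0620, the highest of 19 alternatives, from 0.00543).

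Erbb3, a neuregulin receptor with weak kinase activity that recruits PI3K when paired with Erbb2, had the largest fold change of the tested members. It measured 3.96, 4.46, 6.22, 6.07 and 7.94 CPM in WT mice and 13.2, 10.3, 9.34, 14.5 and 14.6 CPM in KSR23 mice. WT mice 1 and 2 were the lowest of all, and no KSR23 mouse reached down to the WT range. Erbb3 rose 2.18-fold, from 5.73 ± 1.58 to 12.4 ± 2.42 CPM (SD, n = 5), with a log2 FC of 1.12 (SE 0.172, adjusted p = 7.54e-05). Without WT replicates 1 and 2 the log2 FC was 0.89 (adjusted p = 0.00145, the highest of 19 alternatives, from 2.68e-09). Of 6 Schwann cell markers, a cell type known for Erbb3, 0 were called higher by edgeR's quasi-likelihood test (0 at an unadjusted p under 0.05, and 0 by DESeq2) and 2 lower. Their sum was 36.3 to 41.8 CPM in WT and 29.5 to 40.1 CPM in KSR23 mice, and the part of these cells in the Erbb3 result was not tested. In the same mice, 9 of 12 duct-associated genes were called higher, 0 lower and 3 were not called. Of 6 acinar markers, 5 were called lower, where 16.2% of all genes tested were called higher and 14.8% lower. The part of these shifts in the Erbb2 and Erbb3 results was not tested.

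Erbb4, a receptor for neuregulins, Btc and Hbegf, was the least abundant receptor. It measured 0.456, 0.996, 0.351, 0.581 and 0.410 CPM in WT mice and 0.252, 0.267, 0.503, 0.747 and 0.179 CPM in KSR23 mice. These values rest on 9 to 30 counts per mouse and the groups overlapped. The log2 fold change of Erbb4 was -0.57 (SE 0.417, adjusted p = 0.322), so a difference was not detectable at this depth. The value rested on single mice, since it was -1.02 without KSR23 replicate 4, -0.35 without KSR23 replicate 5 and -0.26 without WT replicate 2, with an adjusted p of 0.0783 to 0.746 over 19 alternatives.

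Levels of different genes were compared per kilobase of exon, with the union of all annotated exons as the length. In WT mice, Erbb2 (2.27 ± 0.380 CPM per kb, SD, n = 5) and Egf (2.21 ± 0.254 CPM per kb) were at the top and their ranges overlapped. Egfr followed with 1.44 CPM per kb and lay below Egf in all 5 mice, and the ranges of Egf and Egfr did not overlap. Erbb3 (0.952 CPM per kb), Tgfa (0.925), Btc (0.807) and Hbegf (0.571) came next, with overlapping ranges between neighbors, and Erbb4 (0.0452 CPM per kb) was separated from them.

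In KSR23 mice, Erbb2 stood alone at 3.84 ± 0.697 CPM per kb (SD, n = 5), without overlap with the next gene. Erbb3 (2.06 CPM per kb), Egfr (1.55), Egf (1.33), Hbegf (1.15) and Tgfa (0.976) followed, each overlapping its neighbor. Btc (0.566 CPM per kb) and Erbb4 (0.0315) were separate from the genes above them. Erbb3 thus ranked 4 of 10 in WT and 2 of 10 in KSR23 mice, and Egf ranked 2 and 4. The ranks depend on the length used. Per kilobase of the longest coding transcript, Egf measured 5.23 CPM per kb in WT mice, above Erbb2 in all 5 without overlap, and 3.15 CPM per kb in KSR23 mice, where it ranked below Erbb2 with overlapping ranges. Erbb3 ranked 7 of 10 in WT and 4 of 10 in KSR23 mice with this length.

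Summed per kilobase, the receptor genes rose and the ligand genes did not separate the groups. These sums, shares and ratios were chosen after the values were seen and are given without a test. The receptor sum was 4.70 ± 0.571 CPM per kb in WT and 7.48 ± 1.01 CPM per kb in KSR23 mice (SD, n = 5), without overlap. The ligand sum was 4.54 ± 0.418 and 4.04 ± 0.248 CPM per kb, with overlap.

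The makeup of the ligand sum differed between the groups. Egf took 48.6% ± 3.27 of it in WT and 33.1% ± 5.40 in KSR23 mice, and Hbegf 12.6% ± 1.20 and 28.4% ± 3.0 (SD, n = 5), both without overlap. With the longest coding transcript, Egf took 57.9% and 40.5% and Hbegf 13.0% and 29.9%, again without overlap. The log2 ratio of Hbegf to Egf per kilobase was -1.95 ± 0.129 in WT and -0.21 ± 0.317 in KSR23 mice.

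Within the receptor sum, Erbb2 took 48.3% in WT and 51.1% in KSR23 mice, with overlap. Erbb3 took 20.1% ± 4.12 in WT and 27.5% ± 3.76 in KSR23 mice, without overlap, and Egfr 30.6% ± 4.22 and 21.0% ± 4.25, with overlap. The log2 ratio of Erbb3 to Egfr per kilobase was -0.62 ± 0.252 in WT and 0.41 ± 0.470 in KSR23 mice. Egfr was therefore above Erbb3 per kilobase in every WT mouse, and Erbb3 was above Egfr in 4 of 5 KSR23 mice, or in 3 of 5 per kilobase of the longest coding transcript. With that length Erbb3 took 19.1% of the receptor sum in WT and 26.4% in KSR23 mice, without overlap, and Egfr 32.2% and 22.3%, with overlap.

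**Figure D2:**
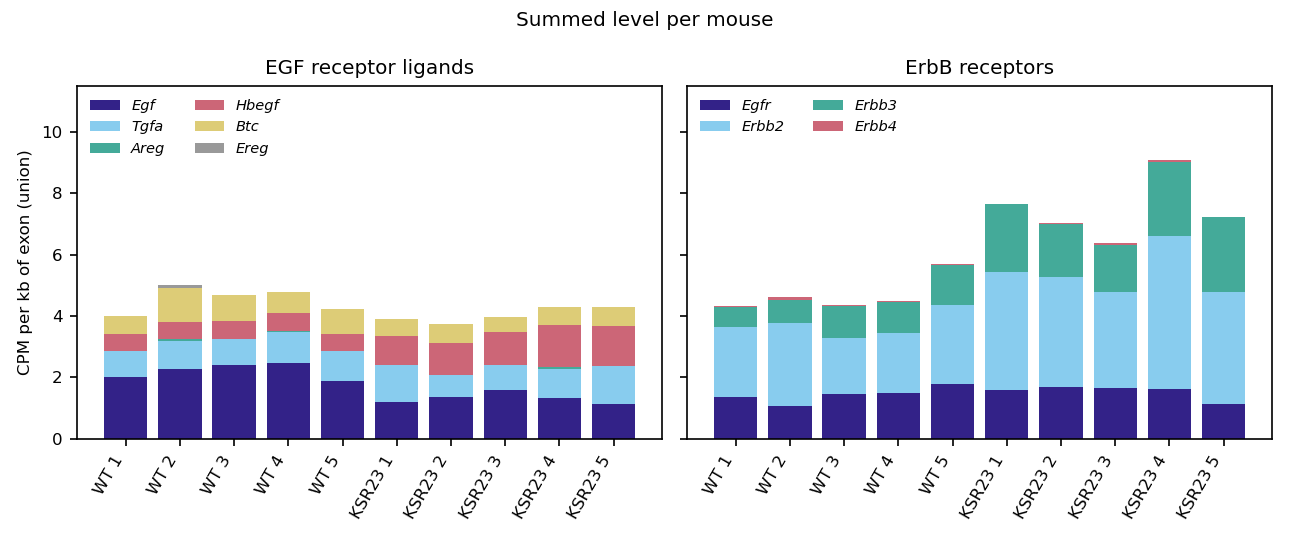
CPM per kilobase of exon of the ligand genes (left) and receptor genes (right) stacked for each mouse, with 1 bar per mouse and 1 color per gene. The receptor bars of KSR23 mice (6.37 to 9.09 CPM per kb) are all above those of WT mice (4.34 to 5.70 CPM per kb), and the Hbegf segment widens while the Egf segment shrinks.

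Other genes of the pathway, and genes of the acinar and duct-like state, were described from lists by role, 117 genes in 9 lists. Of the 107 that were tested, 44 were called higher, 10 lower and 53 were not called. Of all genes tested, 16.2% were called higher and 14.8% lower. The total over the lists includes 12 duct-associated genes (9 higher) and 6 acinar factors (3 lower). The lists were chosen with earlier results of these data known, so the total is a description only. Among the other EGF family ligands, Nrg2, a neuregulin that binds Erbb3 and Erbb4, rose from 1.36 ± 0.329 to 2.32 ± 0.295 CPM (SD, n = 5) with a log2 FC of 0.77 (SE 0.214, adjusted p = 0.0105), and the groups did not overlap. Nrg1, another neuregulin, had 0.372 CPM in WT and 0.404 CPM in KSR23 mice and a log2 FC of 0.04 (SE 0.416, adjusted p = 0.958). Nrg3, Nrg4 and Epgn were too low to be tested, and Epgn had 1, 4, 0, 1 and 2 counts in WT mice and 0 in all KSR23 mice (p = 0.0476 in an exact, two-sided permutation test on CPM).

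Of 9 tested genes for ligand release, 5 were called higher and 1 lower (median log2 FC 0.26). The shares over all genes tested were 16.2% and 14.8%, and no test compared this list with other genes. Adam17, the main sheddase of Tgfa, Areg, Ereg and Hbegf, had 27.6 ± 2.68 CPM in WT and 26.6 ± 1.98 CPM in KSR23 mice (SD, n = 5; log2 FC -0.05, SE 0.0833, adjusted p = 0.679).

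Frmd8, which stabilizes the iRhom carriers of Adam17 at the cell surface, rose from 11.4 to 16.1 CPM without overlap (log2 FC 0.50, SE 0.0916, adjusted p = 0.000498). The iRhom genes Rhbdf2 (log2 FC 0.67, SE 0.143, adjusted p = 0.00174) and Rhbdf1 (0.38, SE 0.0829, adjusted p = 0.00195) rose with overlap. Adam10, known to release Egf and Btc, was called higher (log2 FC 0.26, adjusted p = 0.0263), and Adam12 was lower (-0.68, adjusted p = 0.00212). Adam8 had fewer than 5 counts in 1 or more libraries and was not tested. It measured 0.105 to 0.871 CPM in WT and 1.04 to 3.27 CPM in KSR23 mice, without overlap. Without a filter on low counts, 6 genes for ligand release were called higher. Adam17, Adam10, Adam12 and Adam8 were named after their values were seen.

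Brakes on the receptors and on Ras were higher in part. Of 21 tested, 8 were called higher, 0 lower and 13 were not called (median log2 FC -0.03). Among all genes tested, 16.2% were called higher and 14.8% lower. The count of lower brakes in edgeR's quasi-likelihood test was also 0 at an unadjusted p under 0.05, and DESeq2 gave 0 adjusted and 1 unadjusted. Spry3 was listed at 0 in every mouse. Errfi1, whose product binds and inhibits ErbB kinases, measured 25.0, 30.9, 24.8, 25.1 and 22.4 CPM in WT mice and 92.3, 38.3, 38.7, 46.6 and 48.9 CPM in KSR23 mice. KSR23 mouse 1 was well above the other mice, and even the lowest KSR23 mouse exceeded the highest WT mouse. The log2 FC was 1.05 (SE 0.186, adjusted p = 0.000323), and 0.75 was the lowest value over the alternatives.

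Dusp4, Dusp5 and Dusp6, phosphatases that inactivate MAP kinases, were each higher. Dusp4 increased from 1.63 ± 0.264 to 6.41 ± 1.20 CPM (SD, n = 5), or 3.95-fold (log2 FC 1.98, SE 0.175, adjusted p = 1.03e-07). Dusp5 increased 2.75-fold (log2 FC 1.46, SE 0.163, adjusted p = 2.02e-06), and Dusp6, named after its value was seen, 1.41-fold (log2 FC 0.49, adjusted p = 0.000197). Cblc, a ubiquitin ligase that marks activated receptors for degradation, rose from 7.37 ± 0.659 to 15.0 ± 1.78 CPM (log2 FC 1.02, SE 0.109, adjusted p = 1.07e-06). None of these 4 genes overlapped between the groups. Relatives differed in their calls. Spry1 (log2 FC 0.39, adjusted p = 0.00368, no overlap), Lrig3 (0.44, adjusted p = 0.0370) and Spred2 (0.66, adjusted p = 0.0206) were also higher, while Spry2, Spry4, Lrig1, Lrig2, Spred1, Spred3, Cbl and Cblb did not pass the test. Spry1, Lrig3 and Spred2 were named after their values were seen.

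The downstream lists (adaptors, Ras-MAPK and PI3K-AKT) held calls in both directions, where 16.2% of all genes tested were called higher and 14.8% lower. Of 14 adaptor genes, 4 were called higher and 1 lower (median log2 FC 0.05). Shc1, an adaptor that links receptors to Grb2, was higher (log2 FC 0.24, SE 0.0664, adjusted p = 0.0106), and Ptpn11, the phosphatase SHP2 that is needed for Ras activation, was lower (-0.36, SE 0.0884, adjusted p = 0.00469). Of 12 tested Ras-MAPK genes, 2 were higher and 4 lower (median 0.00), and 5 were higher when libraries were scaled by their total alone. The ERK-activated kinase genes went opposite ways, with Rps6ka1 higher (0.86, SE 0.0922, adjusted p = 1.26e-06) and Rps6ka3 lower (-0.71, SE 0.151, adjusted p = 0.00170).

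Of 15 PI3K-AKT genes, 3 were called higher and 1 lower (median log2 FC -0.01). Pik3cd, a PI3K catalytic subunit known mainly from leukocytes, had the largest change of the list, from 2.46 ± 0.963 to 5.80 ± 1.67 CPM (SD, n = 5; log2 FC 1.23, SE 0.244, adjusted p = 0.000939). Its groups overlapped through WT mouse 2, which had 4.12 CPM. In the same comparison 5 of 7 neutrophil markers were called higher, and of 8 macrophage markers 5 were called higher and 1 lower. Over all genes tested, 16.2% were called higher and 14.8% lower. The macrophage sum overlapped between the groups (382.1 to 466.7 CPM in WT and 381.6 to 638.0 CPM in KSR23 mice). The part of these cells in the Pik3cd result was not tested.

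**Figure D3:**
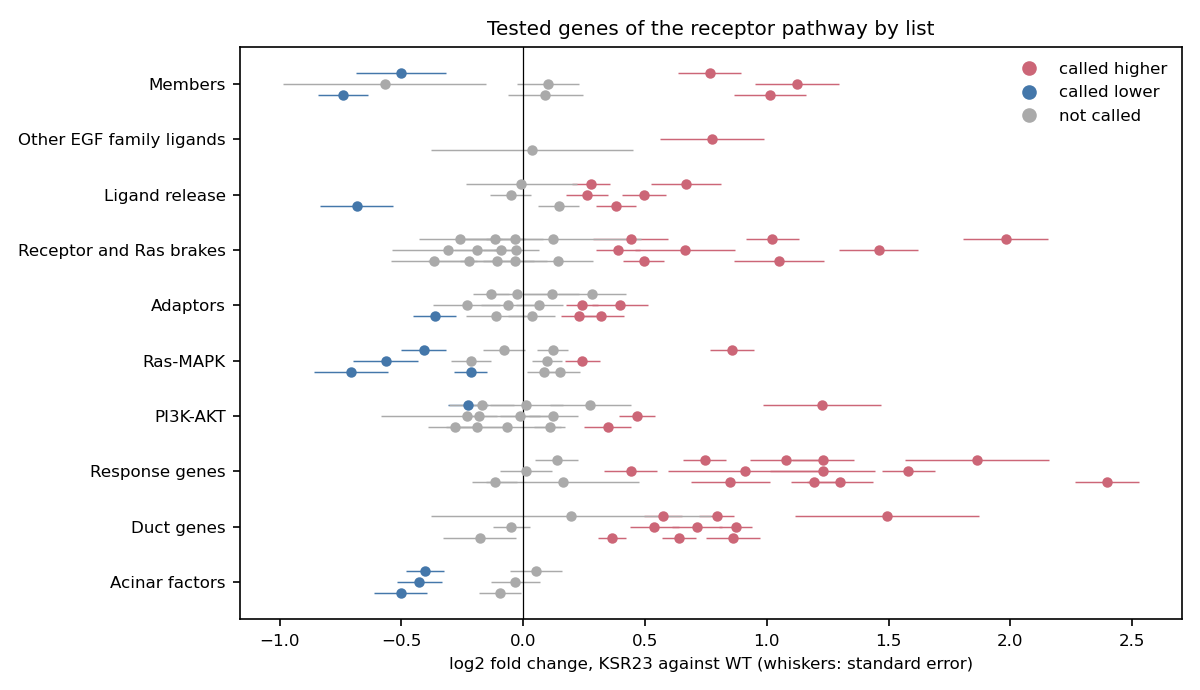
Log2 FC of KSR23 over WT for each tested gene (horizontal axis, whiskers for the SE), colored by call. The members are in the top row, with 1 row for each gene list below. The response genes and duct genes lie to the right of 0 for the most part (medians 0.99 and 0.61), while the adaptor, Ras-MAPK and PI3K-AKT genes center near 0.

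Genes known to be switched on by growth factor signaling were higher in KSR23 mice. Of 16 tested, 12 were called higher and 4 (Myc, Ccnd1, Phlda1 and Egr2) were not called, with a median log2 FC of 0.99 against -0.01 for all genes. These genes are also known to respond to cytokines and stress. Junb, a subunit of the AP-1 transcription factor, measured 14.7, 10.7, 11.7, 12.2 and 12.1 CPM in WT mice and 81.1, 51.1, 59.7, 79.2 and 52.5 CPM in KSR23 mice. The groups were far apart, with a 5.27-fold difference (log2 FC 2.40, SE 0.132, adjusted p = 1.93e-10).

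Etv5 and Etv4, ETS factors that are transcribed in response to MAPK signaling, rose with it. Etv5 measured 13.3, 15.0, 14.9, 14.1 and 14.8 CPM in WT mice and 53.7, 47.9, 34.0, 42.8 and 37.1 CPM in KSR23 mice, with no overlap (log2 FC 1.58, SE 0.108, adjusted p = 3.83e-09). Etv4 was much less abundant, at 0.378 to 0.946 CPM in WT and 1.93 to 4.05 CPM in KSR23 mice (log2 FC 1.86, SE 0.296, adjusted p = 0.000110).

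The immediate early genes Egr1 (log2 FC 1.30, SE 0.134, adjusted p = 7.08e-07), Fos (1.23, SE 0.215, adjusted p = 0.000299), Jun (1.19, SE 0.0968, adjusted p = 3.45e-08) and Ier3 (1.23, SE 0.128, adjusted p = 8.32e-07) were higher without overlap between groups. Plaur, the urokinase receptor, which neutrophils and macrophages also express, rose from 3.83 ± 0.504 to 8.13 ± 1.44 CPM (SD, n = 5; log2 FC 1.08, SE 0.148, adjusted p = 2.27e-05). Myc, a growth gene with 42.6 to 59.2 CPM in WT and 42.0 to 59.2 CPM in KSR23 mice, did not pass the test (log2 FC 0.01). Mmp7, a matrix protease that can shed Hbegf, was not tested because a WT library had 0 counts. It measured 0 to 0.172 CPM in WT and 2.34 to 7.80 CPM in KSR23 mice, and was named after its values were seen.

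**Figure D4:**
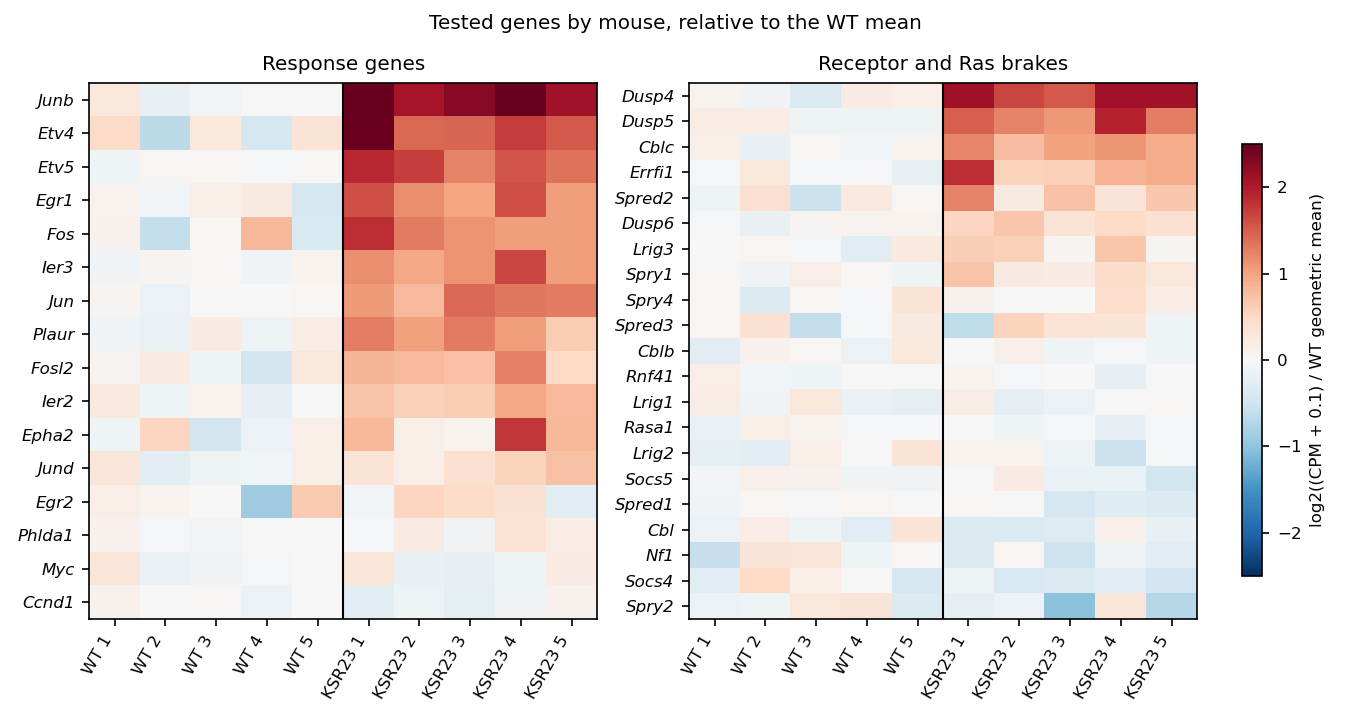
Tested response genes (left) and receptor and Ras brakes (right) in each mouse, as log2 of CPM plus 0.1 relative to the WT geometric mean, with red for higher and blue for lower and the color scale limited at 2.5 on the log2 scale. Junb, Etv4 and Etv5 are red in all 5 KSR23 mice, and Dusp4 and Dusp5 stand out among the brakes.

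Duct-associated genes and acinar transcription factors moved in opposite directions in the same mice. Of 12 genes of the duct-like state, 9 were called higher, 0 lower and 3 (Krt19, Onecut1 and Car2) were not called (median log2 FC 0.61). Over all genes tested, the shares were 16.2% higher and 14.8% lower. The count of lower duct-associated genes in edgeR's quasi-likelihood test was also 0 at an unadjusted p under 0.05, as it was in DESeq2. Sox9, a duct cell transcription factor named after its value was seen, rose from 63.3 ± 7.84 to 114.7 ± 20.3 CPM (SD, n = 5; log2 FC 0.86, SE 0.110, adjusted p = 1.03e-05). Cftr, the chloride channel of duct cells, had the largest log2 FC (1.49, SE 0.378, adjusted p = 0.00612), with overlap through WT mouse 1 at 1.51 CPM. Krt19, the common duct keratin, measured 118.6 ± 9.17 and 114.7 ± 11.7 CPM (log2 FC -0.05, SE 0.0759, adjusted p = 0.663).

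Of 6 acinar factors, 3 were lower and 3 (Nr5a2, Gata4 and Gata6) were not called (median log2 FC -0.25). By comparison, 14.8% of all genes tested were called lower. Ptf1a, which with Rbpjl forms the factor that drives enzyme genes, was lower at log2 FC -0.50 (SE 0.111, adjusted p = 0.00218), Rbpjl at -0.40 (SE 0.0771, adjusted p = 0.000673) and Bhlha15, a factor of mature secretory cells, at -0.43 (SE 0.0918, adjusted p = 0.00185). Rbpjl and Bhlha15 did not overlap between groups and Ptf1a did.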

How the data were processed

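Pancreas RNA of 5 WT and 5 KSR23 mice was analysed, with 1 library per labelled replicate. The authors made cDNA from 100 pg of RNA by oligo-dT priming with the SMART-Seq v4 kit. The cDNA passed 15 and the library 12 PCR cycles without molecular identifiers, so floors cover counting error only. Per the submitters' processing notes, TopHat 2.1.0 placed the single-end 75-base reads on mm10 and HTSeq 0.6.1p1 counted them. Which annotation and strand setting were used is not given in the sources used here. The authors deposited raw counts for each gene, with no normalization, so the depth of each library is known. Of uniquely aligned reads, 6.74% to 7.54% in WT and 5.78% to 6.32% in KSR23 libraries fell on no gene or on several. These reads were kept out of library sizes. Their share did not overlap between the groups, and the cause was not tested. All 75-base windows of each member's longest coding transcript were unique to its gene among annotated transcripts in the sense direction. Antisense overlap and other isoforms of the members were not covered by this check.

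Genes under 5 counts in any library were removed, and libraries were scaled by TMM. The groups were compared in R 4.3.3 with edgeR 4.0.16, by its quasi-likelihood F test with Benjamini-Hochberg adjustment over all 13882 genes at a threshold of 0.05, after a check on simulated counts. The paper's methods used edgeR's likelihood ratio test. The SE of a log2 FC was taken from its F statistic (absolute log2 FC over the root of F). Single values were compared by a two-sided exact permutation test over 252 splits, whose smallest p is 0.00794. For Egf, Hbegf, Erbb2 and Erbb3 this smallest p was reached. Gene lengths are those of GENCODE M21.

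The members and gene lists were chosen with earlier results of these data known. All members were named, and of each list the genes called with a log2 FC beyond 1 in size, or else the 3 with the smallest adjusted p. Not every gene that met these limits is reported here. The labels number the replicates, and the paper describes them as biological replicates from separate mice. Libraries of a group differed by a chi-square of at least 11.87 per degree of freedom over 20 pairs, so none was counted as a copy. Other settings tried were DESeq2 1.42.0, the likelihood ratio test, different scalings and filters, a block for the replicate number, and each library left out in turn. The alternative without WT replicates 1 and 2 was chosen after seeing the data. Adgre1 was listed as Emr1.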

Additional observations from a re-analysis of the deposited data

Results flagged for a closer look

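Of 116 groups of 5 values examined for a mouse far from the others, 16 held one, and chance gives about 1 in 20, or 5.80. All are given as values, and their causes were not tested.

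Among the members, Areg in KSR23 replicate 4 had 0.0996 CPM (4 counts) against 0 in the other KSR23 mice, or 1.90% of the ligand sum per kilobase. Ereg in WT replicate 2 had 0.343 CPM (10 counts) against 0 in the other WT mice, or 1.66% of the ligand sum. Egfr in KSR23 replicate 5 was low at 13.0 CPM, against 17.9 to 19.3 CPM in the others. The receptor sum of WT replicate 5 was 5.70 CPM per kb against 4.34 to 4.61, the Egfr share of the receptor sum in WT replicate 2 was 23.2% against 31.4% to 33.6%, and the log2 ratio of Erbb3 to Egfr in WT replicate 1 was -1.06 against -0.56 to -0.44.

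In KSR23 replicate 1, response genes and a brake were high within their group. Errfi1 measured 92.3 CPM against 38.3 to 48.9, Fos 26.3 CPM against 15.1 to 17.99, and Etv4 4.05 CPM against 1.93 to 2.42. KSR23 replicate 4 was high in Ier3 (22.8 CPM against 13.8 to 16.0) and in Nrg3 (0.349 CPM against 0 to 0.0893). Among WT mice, replicate 1 was low in Rps6ka3 (5.64 CPM against 8.27 to 8.82) and high in Cftr (1.51 CPM against 0.335 to 0.597), and replicate 2 was high in Pik3cd (4.12 CPM against 1.64 to 2.35).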

How the results depend on the processing

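Egf, Hbegf, Erbb2 and Erbb3 kept their direction and call in all 19 alternatives, with log2 FC of -0.81 to -0.64, 0.94 to 1.10, 0.65 to 0.87 and 0.89 to 1.26. Btc was lost with libraries scaled by their total alone (-0.42), without a filter on low counts (-0.51), with the replicate block (-0.48) and without WT replicates 1 and 2 (-0.46), leaving 1 member called lower in each. Leaving out 1 library gave Btc -0.61 to -0.36 and 1 to 2 members called lower. Among values that never passed, the log2 fold change of Tgfa was -0.015 without KSR23 replicate 5 (up to 0.19 with 1 library left out), that of Egfr -0.036 and Nrg1 -0.18 without WT replicates 1 and 2, and Nrg1 ranged from -0.15 to 0.35 with 1 library left out. The Areg difference in CPM was 0.000791 with the total alone and -0.0202 to 0.0119 with 1 library left out, and that of Ereg was -0.0859 to 0 with 1 library left out (0 without WT replicate 2).

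The single lower PI3K-AKT call became 2 in the likelihood ratio test, 3 in DESeq2, 3 with the total of all but the 50 highest genes, 0 with the total alone, 0 with the replicate block and 0 to 2 with 1 library left out (0 without WT replicate 3 or 4 or KSR23 replicate 4 or 5, and 2 without WT replicate 1 or KSR23 replicate 2). Higher Ras-MAPK calls numbered 5 with the total alone and 1 without WT replicate 4 (1 to 2 with 1 library left out), lower other ligands 1 without a filter, and higher adaptors 2 without WT replicates 1 and 2. Lower brakes and lower duct genes each numbered 0 to 1 with 1 library left out. The causes were not tested. Per kilobase of the longest coding transcript, levels in WT and KSR23 mice became 5.23 and 3.15 for Egf, 1.33 and 1.40 for Tgfa, 1.16 and 2.34 for Hbegf, and 1.27 and 0.889 for Btc.

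Genes called over all alternatives ranged from 3321 to 4652. Same-numbered WT and KSR23 samples did not deviate together (r of -0.11, 0.07, -0.06, -0.10 and -0.06), and only WT replicate 2 matched its own number best. With the replicate block 1998 genes were higher and 1751 lower, and it changed no other member's call. Depth limits Areg, Ereg and Erbb4, which rest on 0 to 30 counts per mouse.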

Other observations

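The genes whose deviations from their group mean were most like those of Egf over the 10 mice were Ptpn6 (Pearson r 0.94), Tmem27 (0.93) and Tram1l1 (0.90). For Erbb3 they were Ppp3cc (0.97), Faxc (0.94) and Hic2 (0.91). These are the highest of 13882 correlations over 10 points that share libraries and depth, and they are descriptions only. Of these 6 genes, Ptpn6 was higher in KSR23 mice (log2 FC 0.39, adjusted p = 0.00941) and Tmem27 lower (-0.62, adjusted p = 0.000288), and the other 4 did not pass the edgeR fit. Erbb2 and Erbb3, both higher in KSR23 mice, had a deviation r of 0.22 with each other, and Egf and Erbb3 of -0.42.

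Markers of other cell types were counted in the same fit, in which 16.2% of all genes tested were called higher and 14.8% lower. Stroma markers had 1 of 7 called higher and 1 lower, endothelium markers 1 of 5 higher and 2 lower, and mesothelium markers 1 of 4 lower. Mast cell and basophil markers summed to 55.2 to 63.1 CPM in WT and 40.8 to 70.9 CPM in KSR23 mice, and 5 of 5 tested were not called. Lymphocyte markers, 1 of 5 called lower, were scarce at 6.71 to 8.69 CPM in WT and 4.73 to 6.70 CPM in KSR23 mice. The lower call was Cd3e, with means of 4.01 CPM in WT and 1.45 CPM in KSR23 mice. Untested markers had higher means in KSR23 mice, namely Cd3d (0.110 and 0.447 CPM), Cd8a (0 and 0.0787), Il7r (0.200 and 0.532) and Ms4a1 (0.428 and 0.541). Cd3d and Cd8a did not overlap between groups, though Cd8a had at most 4 counts. Adipocyte markers summed to 87.0 to 129.6 CPM in WT and 29.4 to 56.9 CPM in KSR23 mice, and the 1 that was tested was lower. Nrg4, a ligand known from fat, had 3 to 17 counts in WT and 3 to 12 counts in KSR23 mice.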
